A study of Mus musculus with 16 samples.

Results

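Broad H3K27ac regions without MyoD are wide stretches of acetylated chromatin in cultured mouse satellite cells in which no MyoD peak was called in any library. They were found by merging the peaks of each antibody over its 4 peak lists wherever peaks overlapped or touched, on chromosomes 1 to 19 and X. An H3K27ac region was kept where it held a peak of all 4 H3K27ac lists, was at least 4 kb wide after merging and overlapped no peak of any of the 4 MyoD lists. This left 386 of the 59960 merged H3K27ac regions. They made up 19.1% of the 2016 broad regions present in all 4 lists (exact Clopper-Pearson 95% interval 17.5 to 20.9%) and 1.48% of the 26113 regions of any width present in all 4 lists. The other 1630 broad regions overlapped at least 1 MyoD region, and 294 of these overlapped at least 3. The 386 regions were thus chosen by measured values, namely the presence of a peak in all H3K27ac lists, the merged width and the absence of a MyoD peak, and these are given as a description only.

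The chromatin came from muscle stem cells isolated from the hindlimb of C57BL/6 mice and grown in culture. Knockdown cells were exposed for 48 h to small interfering RNA against LncMyoD, a long noncoding RNA, and control cells were marked as control in their titles and genotype labels. The treatment text is the same for both groups and names no other small interfering RNA, so the treatment of the control cells is unknown here. Each antibody, against H3K27ac or against MyoD, had 2 knockdown and 2 control libraries, made by ChIPmentation, in which a transposase adds adapters to chromatin held by the antibody. The 8 input libraries were not analysed here. Nothing in the labels says whether the 2 libraries of a group came from separate animals or cultures, so any p-value measures only the spread between these libraries, which may be technical.

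H3K27ac is an acetyl group on lysine 27 of histone H3, placed mainly by the acetyltransferases p300 and CBP, and it marks active promoters and enhancers. Unusually wide stretches of this mark often lie at genes that are highly expressed or that set a cell's identity. MyoD is a basic helix-loop-helix transcription factor that commits cells to the muscle lineage and binds E-boxes, short motifs of the form CANNTG, where N is any base. In satellite cells it appears on activation and turns on genes of differentiation. Acetylated stretches that hold no MyoD peak therefore show the active chromatin of these cells that lies apart from its called binding sites.

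The widest regions lay at a let-7 microRNA locus and at genes of transcription factors. let-7 microRNAs are short RNAs that repress messenger RNAs by pairing through bases 2 to 8, the seed, and are known for restraining growth and stem cell programmes. Of the 386 regions, 15 (3.89%, 95% interval 2.19 to 6.33%) held a microRNA hairpin of the RefSeq table, 16 hairpins in all, against 20 of the 1630 broad regions with MyoD (1.23%, 0.751 to 1.89%), which held 21 of the 1005 hairpins. The microRNAs are named here after these counts were seen. Among the hairpins were let-7b and let-7c-2, which lie 622 bp apart on chromosome 15, let-7i on chromosome 10, miR-125b-1 within the noncoding gene Mir100hg, miR-199a-2 within Dnm3os, and miR-193a. The mature sequences of these 6 hairpins, with 1 arm or both, are shown because they tell which of them share a seed. They are taken from RefSeq (GRCm38.p6), run 5′ to 3′ and have the seed in capitals.
mmu-let-7b-5p: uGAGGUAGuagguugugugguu
mmu-let-7c-5p: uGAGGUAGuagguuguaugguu
mmu-let-7i-5p: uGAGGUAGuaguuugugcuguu
mmu-miR-125b-5p: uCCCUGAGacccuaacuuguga
mmu-miR-199a-5p: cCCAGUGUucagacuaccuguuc
mmu-miR-199a-3p: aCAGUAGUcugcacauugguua
mmu-miR-193a-3p: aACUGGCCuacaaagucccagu
let-7b, let-7c and let-7i carry the same seed, and the others each carry a different one. The broad regions with MyoD held, among others, Mir206, a muscle microRNA, in a 15.04 kb region on chromosome 1.

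Promoter sequences could be read for genes whose start lay inside a region. The stretches of 250 bases before the start are shown for 8 of the genes that carry the strongest, widest or most shifted regions described below. They are taken from RefSeq (GRCm38.p6), run 5′ to 3′ towards the start on the strand of the gene, and have each CANNTG in capitals.
Klf7: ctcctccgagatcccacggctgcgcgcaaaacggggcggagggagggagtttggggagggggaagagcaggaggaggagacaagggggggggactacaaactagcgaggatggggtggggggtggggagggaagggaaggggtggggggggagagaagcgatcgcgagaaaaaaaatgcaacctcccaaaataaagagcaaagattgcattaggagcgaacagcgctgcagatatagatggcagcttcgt
Arrdc3: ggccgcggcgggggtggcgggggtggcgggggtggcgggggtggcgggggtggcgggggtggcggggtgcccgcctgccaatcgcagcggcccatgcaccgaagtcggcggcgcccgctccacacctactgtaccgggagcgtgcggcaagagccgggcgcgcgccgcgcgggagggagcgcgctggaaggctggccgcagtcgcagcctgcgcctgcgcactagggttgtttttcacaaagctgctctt
Zeb2: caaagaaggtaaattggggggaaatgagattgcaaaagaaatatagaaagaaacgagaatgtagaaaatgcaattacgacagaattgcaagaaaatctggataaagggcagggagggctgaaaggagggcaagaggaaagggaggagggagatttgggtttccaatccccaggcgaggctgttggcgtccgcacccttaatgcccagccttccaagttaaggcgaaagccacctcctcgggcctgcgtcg
Zfhx3: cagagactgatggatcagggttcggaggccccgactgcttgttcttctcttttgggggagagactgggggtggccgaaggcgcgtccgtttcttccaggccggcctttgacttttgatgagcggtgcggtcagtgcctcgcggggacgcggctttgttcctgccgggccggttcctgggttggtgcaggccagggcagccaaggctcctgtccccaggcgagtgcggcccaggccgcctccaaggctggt
Pdgfa: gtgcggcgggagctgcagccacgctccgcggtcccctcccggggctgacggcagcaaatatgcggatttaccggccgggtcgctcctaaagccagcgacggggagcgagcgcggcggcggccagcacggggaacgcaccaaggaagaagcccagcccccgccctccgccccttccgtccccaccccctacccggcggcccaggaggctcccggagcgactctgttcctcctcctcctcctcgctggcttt
Olfml3: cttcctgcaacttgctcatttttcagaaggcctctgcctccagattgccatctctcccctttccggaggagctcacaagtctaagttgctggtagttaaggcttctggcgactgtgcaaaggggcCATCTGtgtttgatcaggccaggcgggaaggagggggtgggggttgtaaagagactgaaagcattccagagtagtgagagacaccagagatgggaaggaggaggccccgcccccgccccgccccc
Tmem47: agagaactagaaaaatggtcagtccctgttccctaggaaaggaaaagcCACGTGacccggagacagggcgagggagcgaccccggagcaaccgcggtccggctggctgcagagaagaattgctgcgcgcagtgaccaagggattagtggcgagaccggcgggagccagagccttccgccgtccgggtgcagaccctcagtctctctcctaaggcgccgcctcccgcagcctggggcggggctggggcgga
Hcfc1r1: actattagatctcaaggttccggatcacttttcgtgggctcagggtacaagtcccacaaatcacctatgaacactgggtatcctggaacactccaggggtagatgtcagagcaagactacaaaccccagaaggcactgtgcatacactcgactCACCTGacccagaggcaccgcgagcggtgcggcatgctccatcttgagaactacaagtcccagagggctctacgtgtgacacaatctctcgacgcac
The first 5 hold no CANNTG in these 250 bases, while Olfml3 holds CATCTG, Tmem47 CACGTG and Hcfc1r1 CACCTG, 1 each. Other genes of the same kind are not shown. Among them Thoc6 holds CACCTG, Tnfrsf12a CACTTG, Scaf1 CATGTG and Lims1 CATTTG, 1 each, while Rras and Tmem43 hold none. Over 221 promoters of 179 genes, in windows of 300 bases with 250 before and 50 from the start, 49.3% held at least 1 CANNTG, against 63.1% of 628 promoters in broad regions with MyoD and 69.0% of all 21046 promoters of the table. CAGCTG, an E-box core that MyoD binds, was in 8.60% of the promoters without MyoD, against 20.7% with MyoD and 15.7% of all. CAGGTG, counted on both strands, was in 11.3%, against 16.4% with MyoD and 19.9% of all. Both are special cases of CANNTG, so these counts overlap. The same promoters were rich in G and C, with a median of 65.3% against 63.3% with MyoD and 56.7% for all, and 76.0% had a CpG observed-to-expected ratio of at least 0.6, against 68.5% with MyoD and 48.1% of all. The motif shares are not matched on base composition. A match describes letters in a window and says nothing on binding.

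The regions were between 4005 and 30433 bp wide, with a median of 4775 bp and quartiles of 4298 and 5649 bp. The broad regions with MyoD had a median of 5356 bp. The share without MyoD was lower in wider regions, as a description, since the rule used both. Of the regions present in all 4 lists, 69.8% of those under 1 kb, 48.3% of those of 2 to 3 kb, 25.03% of those of 4 to 5 kb and 8.60% of those of 8 kb or more overlapped no MyoD region. Just inside the width limit were regions of 4005 bp at Ralgps1 and Angptl2, 4008 bp at Csk and 4010 bp at Ptger4. Just outside it were regions of 3999 bp at Cttnbp2nl, 3996 bp at Ttc39b and 3996 bp at 6.31 kb from Id3. The 386 regions summed to 2.104 Mb, 3.88% of the 54.2 Mb of regions present in all 4 lists.

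The let-7b and let-7c-2 locus held the widest of the 386 regions, 30433 bp at chr15:85652283-85682715, which overlapped no gene of the table and no listed noncoding gene. The nearest gene body, of Ppara, a nuclear receptor of fatty acid metabolism, was 52.2 kb away. Its highest fold enrichment over background, as the authors' peak caller gave it, was 22.6 and 19.7 in knockdown libraries 1 and 2, and 21.2 and 29.0 in control libraries 1 and 2. All 4 values lay above the 98th percentile of their own list. In both control libraries it was called as 1 unbroken peak, and in the knockdown libraries as 2 and 3 peaks. Peaks covered 99.6% and 95.4% of its bases in knockdown libraries 1 and 2, and 97.9% and 99.5% in control libraries 1 and 2. Knockdown library 1 thus covered more of it than control library 1. The hairpins themselves lay in a second region without MyoD, 12943 bp at chr15:85696432-85709374, which overlapped the noncoding gene Lncppara. There the highest fold was 9.64 and 6.76 in the knockdown libraries and 9.67 and 10.4 in the controls. This second region was thus the weaker of the pair in every library. A gap of 13.716 kb separates them, and it holds an 8.90 kb broad H3K27ac region with 2 MyoD regions, each called in 2 of the 4 MyoD lists and neither in all 4. Another region without MyoD, 4085 bp wide, lay upstream of the widest one, so 3 of the 386 regions share this locus.

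Genes of transcription factors held most of the other regions at the top of the width order. Zeb2, a zinc finger repressor that binds E-boxes, had a region of 23586 bp at chr2:45095907-45119492 that covered its start, with a highest fold of 17.5 and 14.1 in knockdown and 18.6 and 18.1 in control. The nearest MyoD region, present in all 4 MyoD lists, was 42.9 kb away, within the gene. A second Zeb2 region of 4951 bp was far weaker, with 4.91 and 5.74 in knockdown and 5.76 and 7.10 in control. Nfib and Nfia encode nuclear factor I proteins, which bind DNA as dimers and act in stem cell maintenance and differentiation of several tissues. The wider Nfib region, 19040 bp at chr4:82494892-82513931, covered an end of the gene but no listed start, with 15.8 and 11.2 in knockdown and 14.9 and 15.7 in control, and a MyoD region of all 4 lists lay only 2.42 kb from its edge. Nfia held 4 regions without MyoD, 26.978 kb in sum, of which the widest, 13175 bp, had 16.6 and 14.9 in knockdown and 19.5 and 14.2 in control. A broad region with MyoD lay 4.98 kb from this widest Nfia region, and a MyoD region of all 4 lists 6.98 kb from it. No other gene held as many regions without MyoD as Nfia. In all, 26 genes held 2 or more, among them Msi2 and Cyth3 with 3 each, which are named here after the counts were seen.

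Hoxc6, a homeobox gene of the HoxC cluster, had a region of 15288 bp at chr15:102996531-103011818 with a highest fold of 16.7 and 12.9 in knockdown and 14.7 and 12.4 in control. Its nearest MyoD region was 39.8 kb away and was called in 1 list only, yet a 42591 bp broad region that holds that MyoD site lay 8.99 kb away in the same cluster. Zfhx3, a zinc finger homeobox factor, had 13563 bp over its start, with 13.3 and 12.4 in knockdown and 12.5 and 9.47 in control. Runx1, a runt-domain factor known from blood formation and also used in muscle progenitors, had 11608 bp inside the gene, with 19.5 and 17.7 in knockdown and 17.5 and 19.5 in control. A broad region with 3 MyoD regions lay 2.66 kb from it, so acetylation with and without MyoD alternated along the same gene. Trim8, a ubiquitin ligase gene, had 11140 bp with 18.4 and 11.7 in knockdown and 15.8 and 16.3 in control. Smad7, the inhibitory Smad of TGF-beta signalling, had 10904 bp with 22.7 and 13.8 in knockdown and 25.3 and 26.0 in control. Both knockdown values were below both controls there, and knockdown library 2 was the lowest.

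**Figure D1:**
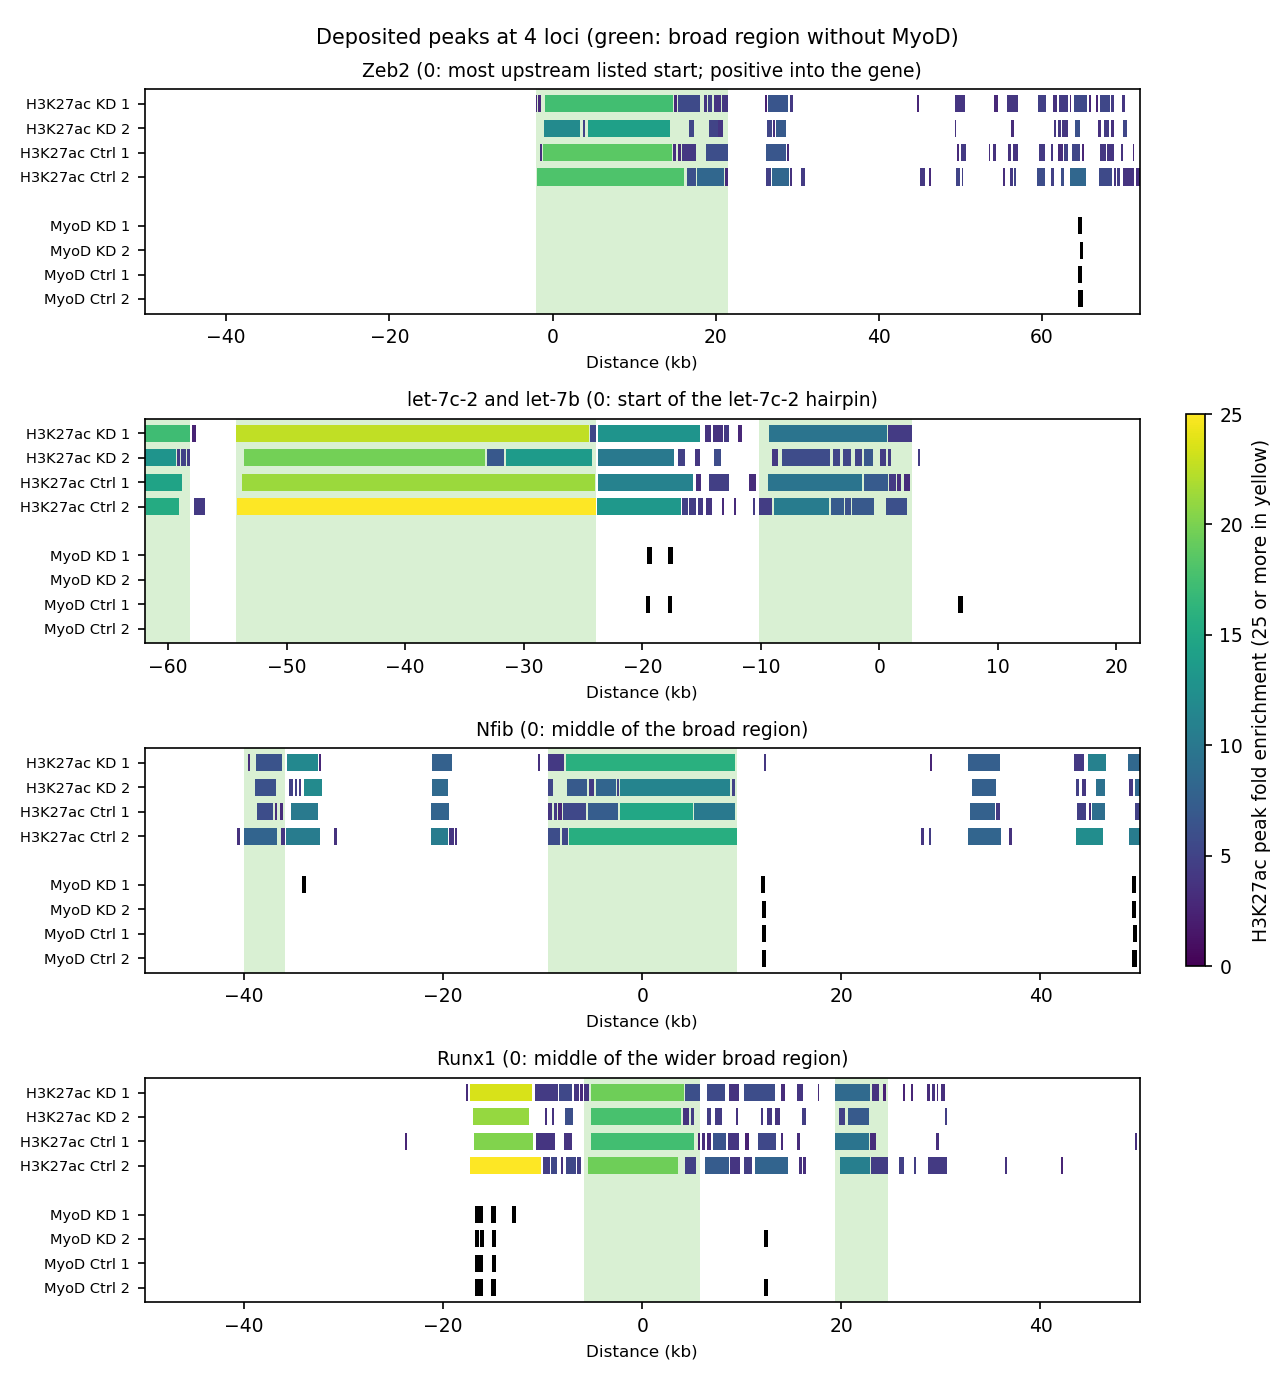
Deposited peaks along 4 loci, with distance in kb on the horizontal axis and 1 row per library (KD: knockdown, Ctrl: control). Coloured bars are H3K27ac peaks by fold enrichment, black bars are MyoD peaks and green shading marks broad regions without MyoD; at the let-7 locus the shaded 30.4 kb and 12.9 kb regions lie on either side of a stretch that holds 2 MyoD regions.

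Apart from the widest let-7 region, none of the 10 strongest regions was among the 10 widest. Ranked by the lowest of their 4 highest folds, 1 value per list, the regions ranged over 2.65 to 24.6 with a median of 10.6. The value was at least 10 in all 4 lists in 216 regions (56.0%) and under 5 in at least 1 list in 12 (3.11%), against 1279 (78.5%) and 13 (0.798%) of the broad regions with MyoD. Klf7, a Krüppel-like transcription factor gene, came first with 26.2 and 24.6 in knockdown and 26.6 and 24.6 in control, at chr1:64117935-64123276. It was above the 98th percentile in each list, and its nearest MyoD region was 201 kb away. Arrdc3, whose product is an arrestin-domain adaptor in receptor trafficking, followed with 26.9 and 22.3 in knockdown and 25.3 and 26.3 in control, 164 kb from the nearest MyoD region. Sh3glb1, which encodes a membrane-curving endophilin, had 22.4 and 23.8 in knockdown and 22.1 and 23.4 in control in a region of 9707 bp that covered an end of the gene but no listed start.

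Compact gene neighbourhoods were also among the strongest. A region of 4513 bp on chromosome 17 covered the starts of 3 genes, Hcfc1r1, Thoc6 of the messenger RNA export complex THO, and Tnfrsf12a, the receptor of the cytokine TWEAK. Its highest fold was 26.0 and 21.8 in knockdown and 21.9 and 24.0 in control. Another of 4358 bp on chromosome 7 covered the starts of Rras, a small GTPase gene, and Scaf1, with 23.3 and 20.8 in knockdown and 20.8 and 27.2 in control. Lims1, which encodes the focal adhesion adaptor PINCH, had 19.6 and 21.3 in knockdown and 19.9 and 26.6 in control over its start. Bicral, a gene of a SWI/SNF chromatin remodelling subunit, Dlgap1 and the noncoding gene Lncpint completed the 10 strongest together with the widest let-7 region, and their lowest values were between 19.7 and 21.0. At the weak end, a region at Pfkp, a phosphofructokinase gene, had 2.71 and 3.39 in knockdown and 2.65 and 4.14 in control. Across the 386 regions, Spearman's rho between width and the mean of the 4 highest folds was 0.153, and between distance to MyoD and that mean it was 0.0233; these describe regions that share libraries.

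**Figure D2:**
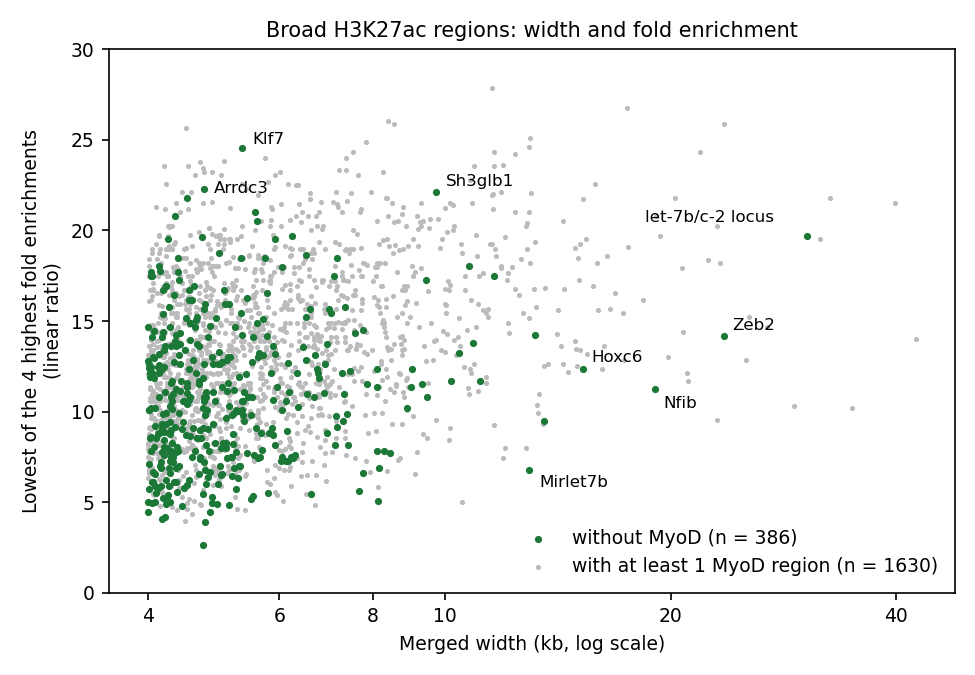
Merged width in kb (log scale) against the lowest of the 4 highest fold enrichments (linear ratio, 1 value per H3K27ac list) for the 386 broad regions without MyoD (green) and the 1630 with MyoD (grey). Among the 386 regions without MyoD, the widest, at the let-7b and let-7c-2 locus, has a lowest fold of 19.7. Klf7, at 5.34 kb, has the highest of these 386 at 24.6.

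Each list was also ranked within itself. The within-list percentile is the place of a region's highest fold among the 26113 regions present in all 4 lists, so that every list ranks the same regions. The median percentile of the regions without MyoD was 82.6 and 81.9 in the knockdown libraries and 81.7 and 80.9 in the controls. For the broad regions with MyoD it was 90.5 and 91.7 in knockdown and 90.8 and 91.9 in control. Regions without MyoD thus ranked lower than broad regions with MyoD in 4 of 4 libraries, with a mean difference of -9.49 points (range over libraries -11.1 to -7.93). The two-sided exact sign-flip test over the 4 libraries gave p = 0.125, the smallest it can give, so this design cannot reach 0.05. The difference was present at matched width too, at -7.93 points for 4 to 5 kb, -9.78 for 5 to 6 kb, -8.04 for 6 to 8 kb and -7.63 for 8 kb or more, in 4 of 4 libraries each. Against the 294 broad regions with 3 or more MyoD regions it was -13.3 points.

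Peaks also covered less of the regions without MyoD than of the broad regions with MyoD. In the knockdown libraries 91.3% and 74.5% of their bases lay in peaks, and in the controls 84.3% and 90.2%. In broad regions with MyoD the shares were 93.7% and 82.8% in knockdown and 88.6% and 92.96% in control, a difference of -4.42 points that was negative in 4 of 4 libraries (exact sign-flip p = 0.125). A region without MyoD held on average 1.88 and 2.66 peaks in knockdown and 2.28 and 2.09 in control, 0.228 more than a broad region with MyoD, again in 4 of 4 libraries. Against the broad regions with 3 or more MyoD regions the difference was 0.0216 peaks, positive in 2 of 4 libraries (exact sign-flip p = 1). Only 30 of the 386 regions (7.77%) were a single peak in every list, against 196 of 1630 (12.02%). Covered bases and peak counts come from the peaks that set the merged width used by the rule. They are therefore a description, and no conclusion is drawn from their tests.

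**Figure D3:**
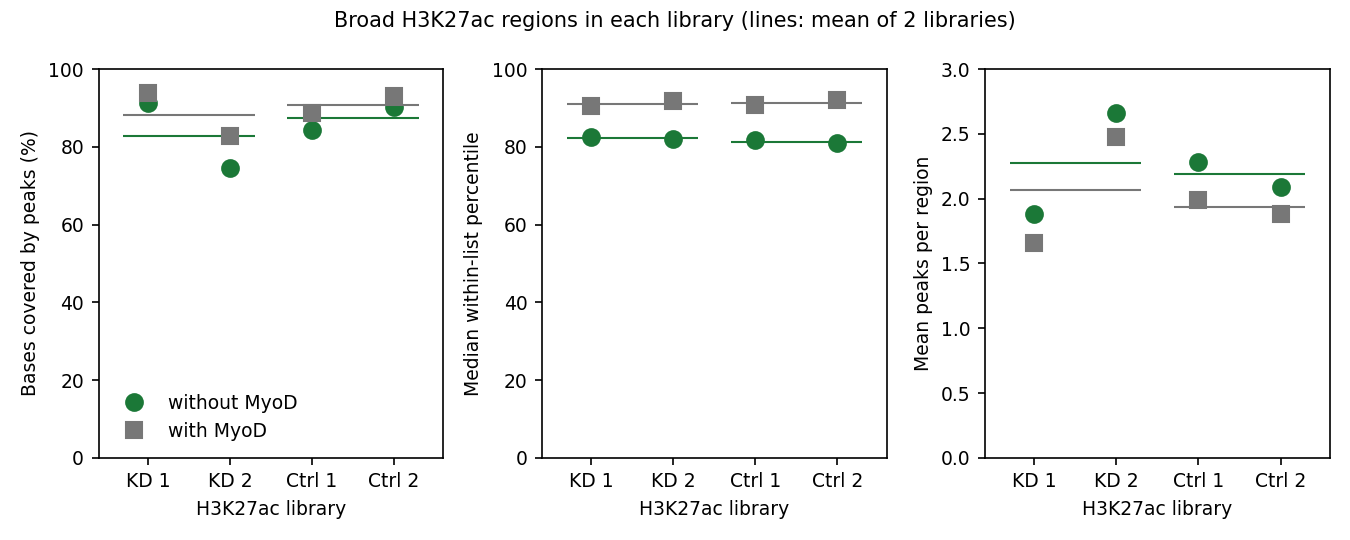
Share of bases covered by peaks (%), median within-list percentile and mean peaks per region in each H3K27ac library (KD: knockdown, Ctrl: control), for broad regions without MyoD (circles) and with MyoD (squares); lines are means of 2 libraries. The circles lie below the squares in the first and second panels and above them in the third, in all 4 libraries.

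Knockdown and control were compared over libraries. Bases covered by peaks within the 386 regions were 1.92 and 1.57 Mb in knockdown and 1.77 and 1.90 Mb in control, so 1 knockdown library was the highest and the other the lowest. The means were 1.74 ± 0.249 Mb in knockdown and 1.84 ± 0.0878 Mb in control (SD, n = 2 each), a difference of -0.0932 Mb. A two-sided exact permutation test, with 6 ways to assign the libraries, gave p = 1. These bases come from the peaks that set the merged width used by the rule, so no conclusion is drawn from this test. Without knockdown library 2 the difference was 0.0808 Mb. That library covered the fewest bases in 292 of the 386 regions (75.6%), and in 1085 of the 1630 broad regions with MyoD (66.6%). It also had the fewest H3K27ac peaks, 39934 against 46207 to 54008 in the other 3 lists. The part of this list size in the result was not tested. Sequencing depth is unknown, as peak lists carry no counts of reads.

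The median highest fold was 14.0 and 11.3 in knockdown and 12.1 and 13.0 in control, with means of 12.7 ± 1.88 in knockdown and 12.6 ± 0.662 in control (SD, n = 2 each). A fold belongs to its own list, and on these medians the exact permutation test gave p = 1. The median within-list percentile averaged 82.2 ± 0.521 in knockdown and 81.3 ± 0.575 in control (SD, n = 2 each). This difference of 0.965 points, with no overlap between the groups, gave p = 0.333 in the exact permutation test, the smallest it can give with 2 libraries against 2. It was -0.269 points in the 78 regions of at least 6 kb.

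By region, 65 of 386 (16.8%) had both knockdown percentiles below both control percentiles, against 15.9% of all regions present in the 4 lists. Another 65 (16.8%) had both above, against 16.4%. Both shares were near those of all regions, so neither count sets these regions apart. In the broad regions with MyoD the shares were 17.5% lower and 13.4% higher. The median change per region was 0.447 points (quartiles -3.28 to 3.66), and the 2 control libraries differed from each other by a median of 6.16 points, more than any knockdown library did from a control (3.83 to 5.53), while the 2 knockdown libraries differed by 3.97.

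The 5 regions without overlap that lay furthest below control are described with no test. Map4k4, which encodes a kinase of stress and adhesion signalling, had percentiles of 22.3 and 20.6 in knockdown and 44.1 and 59.8 in control, with folds of 5.64 and 4.78 in knockdown and 6.51 and 9.17 in control, at chr1:39904583-39909036 inside the gene. Yap1, the coactivator that the Hippo pathway restrains, had percentiles of 15.9 and 22.9 in knockdown and 44.1 and 55.1 in control, inside the gene at chr9:7981559-7985619. Its folds were 5.09 and 4.97 in knockdown and 6.51 and 8.58 in control. Both regions were weak, among the 12 with a fold under 5 in at least 1 list. Peaks of knockdown library 2 covered 39.4% of the Map4k4 region and 34.0% of the Yap1 region. In both regions the controls also differed from each other. Tmem43, a gene of an inner nuclear membrane protein, had 32.7 and 27.1 in knockdown and 49.6 and 64.0 in control. Ptger4, the prostaglandin E2 receptor EP4, had 26.5 and 24.8 in knockdown and 52.9 and 42.9 in control. Tmem47 had 58.8 and 29.6 in knockdown and 64.7 and 64.0 in control, where knockdown library 2 alone was far from the rest. All 5 were narrow, at 4010 to 4454 bp.

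Among the regions higher in knockdown, Vps13d, a lipid transfer protein gene, had percentiles of 56.1 and 72.2 in knockdown and 40.2 and 36.8 in control, inside the gene at chr4:145010465-145014526. Pdgfa, a platelet-derived growth factor ligand that acts on mesenchymal cells, had 63.4 and 76.7 in knockdown and 52.9 and 44.5 in control over its start at chr5:138991988-138996694. Its folds were 10.2 and 10.3 in knockdown and 7.44 and 7.40 in control, so each knockdown value was above each control value. Olfml3, a gene of a secreted glycoprotein, had percentiles of 83.3 and 76.7 in knockdown and 68.5 and 54.1 in control. Actn1, the non-muscle alpha-actinin that crosslinks actin, had 47.2 and 69.0 in knockdown and 40.2 and 40.4 in control. Prkar1b, which encodes a regulatory subunit of protein kinase A, had 84.6 and 85.0 in knockdown and 66.0 and 74.6 in control, in a region of chromosome 5 not far from that of Pdgfa.

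**Figure D4:**
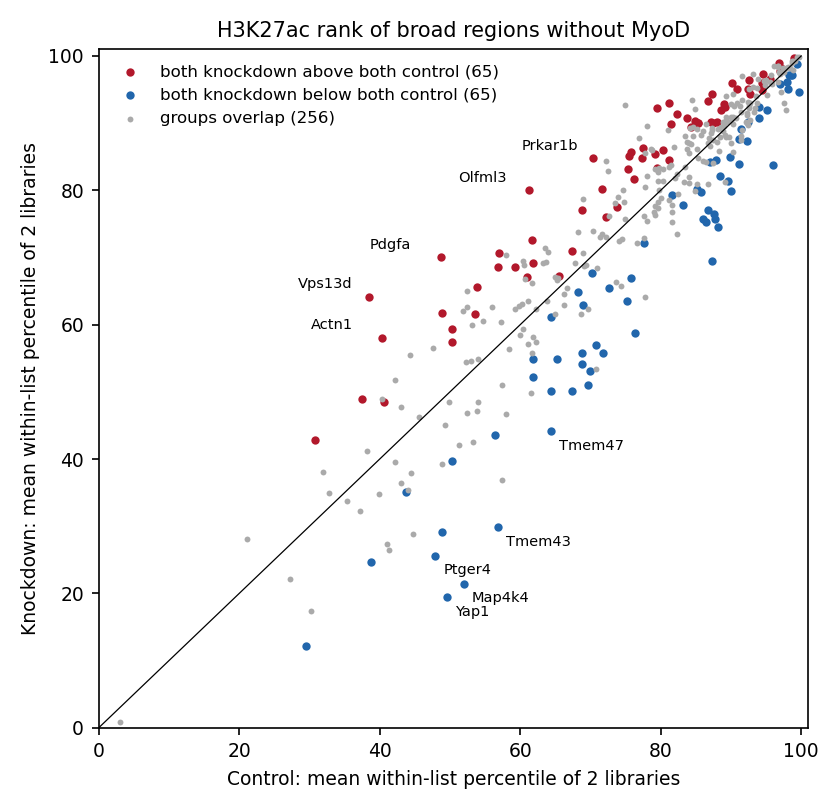
Mean within-list percentile of the 2 knockdown libraries (vertical axis) against that of the 2 control libraries (horizontal axis) for each of the 386 regions, with the line of equality. Red and blue points are the 65 regions with both knockdown values above and the 65 with both below both control values, and grey points are the 256 whose groups overlap.

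The regions lay at genes more often than the broad regions with MyoD, by counts and with no test. Of the 386, 183 (47.4%, 95% interval 42.3 to 52.5%) covered a gene end or had one within 1 kb, against 34.6% of the broad regions with MyoD and 34.5% of all regions present in 4 lists. At least 1 listed start was covered by 160 of 378 regions (42.3%), against 26.7% of broad regions with MyoD and 26.1% of all (chromosome 18 is not in the start table used and is left out). A further 166 (43.9%) overlapped a gene body but no listed start, against 53.5% with MyoD. Only 17275 genes had a listed start, against 21633 genes of the table, so some of these regions may cover an unlisted start. No gene body was overlapped by 53 (13.7%), against 19.6% with MyoD, and 17 of those 53 overlapped a long noncoding RNA gene. Regions over listed starts had median percentiles of 85.6 and 86.6 in knockdown and 86.9 and 83.2 in control. Those that overlapped a gene body without a listed start had lower medians in each library, at 71.7 and 73.8 in knockdown and 72.7 and 74.3 in control.

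Seen from the most upstream listed start, the acetylation leaned into the gene. In the 143 regions that held listed starts of 1 gene only, 69.4% of the merged bases lay downstream of the most upstream one. Any further listed start of that gene in the region therefore counts as downstream. Of the 143 regions, 112 (78.3%) extended further downstream than upstream, with medians of 3417 bp downstream and 1293 bp upstream. By library, the downstream share of covered bases was 69.5% and 70.7% in knockdown and 70.5% and 70.6% in control (exact permutation p = 1). The strongest summit lay a median of 258 and 309 bp downstream in knockdown and 305 and 349 bp in control. Broad regions with MyoD had a downstream share of 69.3% over 378 regions with starts of 1 gene only. The difference over the 4 libraries, 0.578 points, gave p = 0.25 in the exact sign-flip test. Their summits lay further in, at 334 and 364 bp in knockdown and 366 and 422 bp in control, 66.0 bp more on average in 4 of 4 libraries (exact sign-flip p = 0.125).

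**Figure D5:**
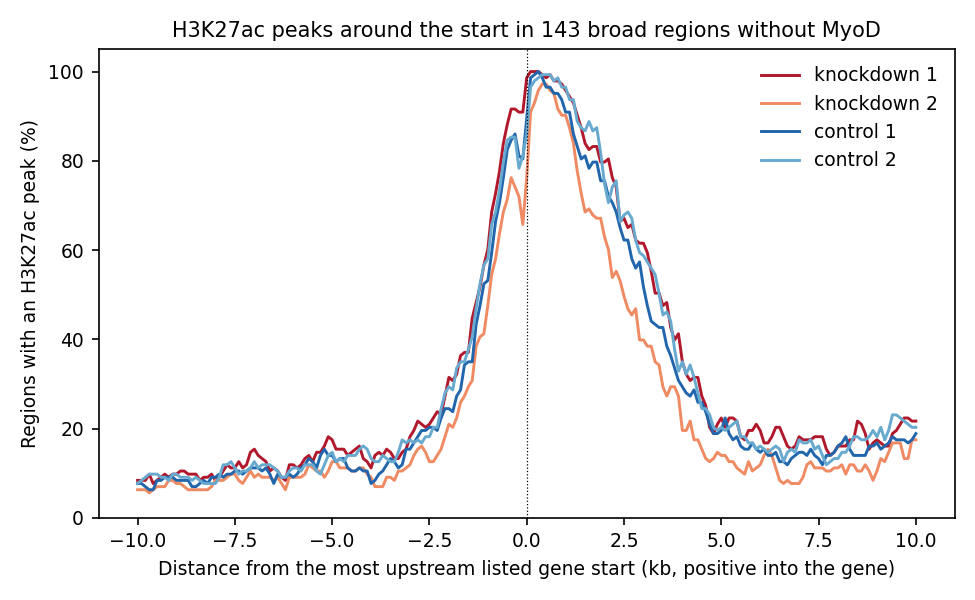
Share of 143 regions with an H3K27ac peak (%) by distance from the most upstream listed start in kb (positive into the gene), 1 line per library. Each of these regions held listed starts of 1 gene only. The peaks reach further into the gene than upstream in each library, as in the medians of 3417 bp downstream and 1293 bp upstream of the merged regions, and knockdown library 2 is lowest over most of the downstream flank.

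Although chosen to hold no MyoD, many of these regions were near it. The distance to the nearest MyoD region was 185 bp to 342 kb, with a median of 10.6 kb. None lay within 5 kb in 292 regions, within 50 kb in 47 and within 100 kb in 15. Plin2, which encodes a lipid droplet coat protein, was the farthest at 342 kb, followed by a region at Gpc6, a glypican gene, at 333 kb. A broad region with MyoD lay within 50 kb of 178 regions (46.1%), and another region without MyoD within 50 kb of 67 (17.4%), so neighbouring regions often share a locus. Of the 341 genes overlapped by a region without MyoD, 124 also had a broad region with MyoD.

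More muscle genes had a broad region with MyoD than a region without MyoD, as was so for all genes of the table. A gene counted here when a region overlapped it or, outside genes, had it as the nearest within 50 kb. Over all 21633 genes of the table, 1.71% had a region without MyoD and 5.94% a broad region with MyoD, against which the lists are read, with no test. Of 29 myogenic regulators, 3 (10.3%) had a region without MyoD and 19 (65.5%) a broad region with MyoD. Among the 3 were Mbnl1, a splicing factor, and Msc, a repressor of MyoD activity. The wider Mbnl1 region had a highest fold of 15.6 and 11.6 in knockdown and 10.8 and 17.5 in control. Of 25 satellite cell and Notch genes, 6 (24.0%) had a region without MyoD (Cd34, Fgfr1, Foxo1, Foxo3, Ncam1 and Vcam1) against 19 (76.0%) with MyoD. Both shares were above those of all genes. Of 30 sarcomere genes, 0 had a region without MyoD and 7 (23.3%) had one with MyoD.

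Growth factor and kinase signalling was the list with the highest share without MyoD, 7 of 26 genes (26.9%), and the same number had a broad region with MyoD. They were the receptors Egfr and Igf1r, the insulin and IGF receptor adaptors Irs1 and Irs2, the ligand Pdgfa and the inhibitors Dusp6 and Spred1 of the ERK pathway. Irs1 had the widest, 10191 bp over its start, with a highest fold of 15.3 and 13.4 in knockdown and 11.7 and 15.7 in control. Irs2 had 9030 bp over its start, with 15.6 and 12.4 in knockdown and 16.2 and 14.7 in control. Igf1r, the membrane receptor of insulin-like growth factors, had 16.9 and 10.2 in knockdown and 18.4 and 19.2 in control, where both knockdown values were below both controls. Egfr was weak in every library, with 7.28 and 6.5 in knockdown and 5.02 and 6.51 in control.

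The other lists had up to 4 genes each with a region without MyoD. These were 4 of 26 cytoskeleton genes (Actb, Actg1, Actn1 and Iqgap1) against 14 with MyoD, 4 of 28 splicing and processing genes (Hnrnpa2b1, Hnrnpu, Neat1 and Srsf3) against 5, and 4 of 32 matrix and TGF-beta genes (Lamc1, Smad3, Smad7 and Tgfb2) against 10. They also included 4 of 30 immediate early genes against 13, of which Jun and Myc were assigned from 45.5 and 47.2 kb away, 3 of 30 Hox and limb genes (Hoxa10, Hoxc6 and Meis1) against 7, and 2 of 21 chromatin genes (Chd2 and H2az1) against 5. Single genes were Cdk6 of 25 cell cycle genes, against 5, and Eef1a1 of 22 translation genes, against 1, and of 20 chaperone and proteasome genes 0 had one, against 2. Though the counts were small, most of these shares without MyoD were above the 1.71% of all genes, with no test. They ranged from 9.52% of chromatin genes to 15.4% of cytoskeleton genes in the lists with more than 1 such gene. The share was 4.55% of translation genes, 4% of cell cycle genes and 0% of chaperone and proteasome genes. Eef1a1, the translation elongation factor, had 23.7 and 17.7 in knockdown and 21.9 and 21.9 in control. Actg1, cytoplasmic gamma-actin, had 23.7 and 11.9 in knockdown and 18.8 and 23.4 in control.

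Marker genes of cells other than satellite cells were read against the 1.71% of all genes with a region without MyoD and the 5.94% with a broad region with MyoD. Of 14 endothelial markers 0 had a region without MyoD and 0 a broad region with MyoD, and of 14 fibro-adipogenic markers 0 and 1. For smooth muscle and pericytes the counts were 0 and 4 of 14 markers, for immune cells 1 and 1 of 14, both at Runx1, and for Schwann and neural cells 1 and 3 of 14, where the 1 was Ncam1, which satellite cells also express.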

How the data were processed

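Per the submitters' processing notes, the tools were MACS2 2.1.1, bedtools 2.26.0, Bowtie2 2.3.2, SAMtools 1.3 and Picard 2.9.2, on mm10. No option of any tool is stated. The authors deposited 1 peak list per ChIP library and none for pooled samples. Each deposited peak carries a fold enrichment at its summit, a linear ratio, the −log10 of its p-value and q-value, and a score, the whole-number part of its −log10 q times 10. No reads are counted in them, so the depth is unknown and intervals cover counting error over regions only.

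Regions were merged with a gap of 0 bp and an overlap of at least 1 base, in Python 3.11.15 with pandas 2.3.3, numpy 2.4.6 and scipy 1.17.1, and the scripts were tested on simulated data. Gene positions, starts, microRNAs and promoters came from RefSeq tables of GRCm38.p6 (mm10 is the same assembly). A region was assigned to the gene body it overlapped or else the nearest within 50 kb. Of 413 genes in the lists, 410 matched the table by symbol. Groups were compared on 1 value per library by exact permutation tests (2 libraries a group). Named regions are the 10 widest, the 10 with the highest lowest fold, the 5 with the largest percentile difference in each direction among those without overlap, those at list genes and those nearest the width limit. 1 list gene is not reported here by name. The members and lists were chosen with earlier results of these data known. Alternatives changed the merge gap, the q-value, the width limit, the MyoD criterion, the number of peaks, the gene-end distance, the libraries and the pairing.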

Additional observations from a re-analysis of the deposited data

How the results depend on the processing

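Of 84 alternatives over all results, 53 left the result as it was. Differences were judged by their sign alone, and only counts and the share at gene ends were judged by size. The number of regions was 793 with peaks within 1000 bp merged, 1126 at a width of at least 3 kb, 78 at 6 kb and 760 where only MyoD regions of all 4 lists counted, and 299 to 371 without 1 library. The difference between knockdown and control in covered bases was -0.21 to 0.0808 Mb without 1 library and turned positive without knockdown library 2. In the median fold it turned negative at -0.0141 with a −log10 q of at least 5, -0.251 at 6 kb and -0.146 with an equal number of peaks, and was -1.43 to 1.304 without 1 library. In the median percentile it turned negative at -0.269 at 6 kb and -0.0299 with an equal number of peaks, and was 0.152 to 1.38 without 1 library. The cause was not tested.

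Regions without overlap numbered, lower and higher in knockdown, 114 and 143 of 793 with the merge and 161 and 197 of 1126 at 3 kb. They were 16 and 9 of 78 at 6 kb, and 131 and 122 of 760 with MyoD in all 4 lists. The shares over all regions were 15.9% lower and 16.3% higher with the merge. At 3 kb, at 6 kb and with that MyoD criterion they were 15.9% and 16.4%. Without 1 library the counts were 78 to 119 and 98 to 144, of 299 to 371 regions. The share over all regions was then 31.4 to 34.1% and 30.5 to 35.8%, since 1 library against 2 overlaps less often. With the replicate number as a block, 99 of 386 were lower and 120 higher in both pairs, against 25.8% and 26.5% of all regions. The labels do not pair the numbers, and deviations of same-numbered libraries correlated at 0.176 over these regions. The block changed no other call. The percentile difference from broad regions with MyoD was -8.99 to -6.94 without 1 library. The share at gene ends was 57.5% within 5 kb, 39.7% over genes with a promoter sequence, and 47.2 to 51.5% without 1 library. Leaving out a library for these last 2 results, and the comparison under 5 kb alone, were chosen after seeing the data.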
